A study of Capra hircus with 29 samples.

Results

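The 10 genes described here are HSD17B2, LOC102189495 and LOC102187932 together with 7 further members of the 17-beta-hydroxysteroid dehydrogenase family, HSD17B4, HSD17B7, HSD17B8, HSD17B10, HSD17B11, HSD17B12 and HSD17B14. They were taken by gene symbol from an RNA-seq table of 21343 genes covering 29 goat oocyte samples, and all 10 had an entry. HSD17B2, LOC102189495 and LOC102187932 were chosen because of their levels in these samples, so their differences are given as values without a test. The other 7 bear the family name and were tested where their levels allowed a fit. HSD17B1, HSD17B3, HSD17B6 and HSD17B13 bear it too and are described among the genes around these enzymes. The unit is FPKM, fragments scaled by gene length and by library size, which can be set side by side between genes.

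All samples were oocytes of the Ji'ning grey goat, for which the labels name no drug or other agent, and 6 groups were compared. The high fertility group came from goats with more than 3 kids per birth and the low fertility group from goats with fewer than 2, according to the labels. The study's methods instead give at least 3 per litter for high and at most 2 for low fertility. Its results section gives more than 3 and at most 2. HLO, HMO and HSO were oocytes of large, medium and small follicles of the high fertility goats, and LLO, LMO and LSO were those of the low fertility goats. There were 5 samples in each group except HSO, which had 4 (replicates 1, 3, 4 and 5). Each sample was a pool of a few oocytes, and the methods describe, for the high fertility goats, that oocytes were pooled by follicle size before they were divided, so a sample is not an animal and p-values measure only the spread between these samples. In such bulk samples, fewer cells of a type and less RNA per cell cannot be told apart.

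Enzymes named HSD17B oxidise or reduce the 17 position of steroids, and they set how much active estrogen or androgen a cell holds. Several of them act mainly on other substrates, such as fatty acids, cholesterol precursors or branched-chain amino acid products. Dihydrodiol dehydrogenases of the aldo-keto reductase family 1 subfamily C, to which LOC102189495 and LOC102187932 belong by their descriptions, reduce steroid ketones and other carbonyls. In the ovary most steroid is made by theca and granulosa cells around the oocyte.

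The deposited values give no read counts, and depth cannot be read from FPKM, which are scaled by library size. The study lists supplementary tables of sequence counts and mapping information, which were not used here. The sum of FPKM was 222697 in LMO replicate 2 and up to 490048 elsewhere, with 6646 to 8689 genes above 0.5 FPKM per sample. Oocyte markers such as GDF9, BMP15 and ZP3 summed to between 1590 and 10969 FPKM over the samples. Of the 2 entries of DAZL, ENSCHIG00000017877 was above 0 in all 29 samples and reached 4.97 FPKM, and the other was at 0 throughout. Granulosa markers summed to between 7.47 and 34.2 FPKM. Of their 11 entries 4 stayed under 0.5 FPKM in all samples, with AMH at 0 and LHCGR at most 0.0460. SERPINE2 (3.23 to 18.5 FPKM), VCAN (1.91 to 8.24) and HAS2 (0.640 to 4.34) were above 0.5 FPKM in all 29 samples. Theca and stroma markers summed to between 9.65 and 61.3 FPKM, mostly from STAR, ACTA2 and DCN, with INSL3 at 0. A value of exactly 0 can be a failed estimate in such a table, since a TMSB4X gene that reached 9631 FPKM was listed at 0 in 9 samples.

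HSD17B2, which oxidises estradiol and testosterone to less active 17-keto steroids, was high in 8 of the 29 samples and close to 0 in the other 21. In HMO it stood at 25.3, 0.0443, 12.7, 17.7 and 27.4 FPKM in replicates 1 to 5. In LMO the values were 0.101, 0.0260, 0.0285, 0.0833 and 0.0908 FPKM. Thus 4 of the 5 HMO samples were far above every LMO sample, while HMO replicate 2 lay inside the LMO range, so the groups overlapped.

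In the small follicles the direction of the counts was the opposite. LSO had 18.5, 0.0489, 7.44, 18.0 and 0.0754 FPKM of HSD17B2 in replicates 1 to 5. HSO had 0.0588, 0.121, 0.107 and 0.122 FPKM in replicates 1, 3, 4 and 5. Hence 3 LSO samples were high and no HSO sample was. In the large follicles only LLO replicate 4 was high, at 41.7 FPKM, the highest value of HSD17B2 in the series. The other LLO samples had 0.114, 0.00931, 0.143 and 0.0254 FPKM, and HLO had 0.0371, 0.0261, 0.0360, 0.0394 and 0.113 FPKM in replicates 1 to 5. By group, HSD17B2 was above 1 FPKM in 0 of 5 HLO, 1 of 5 LLO, 4 of 5 HMO, 0 of 5 LMO, 0 of 4 HSO and 3 of 5 LSO samples.

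No sample lay between these levels. The lowest of the 8 high samples, LSO replicate 3, had 52.1 times the FPKM of the highest of the 21 low samples, LLO replicate 3. The low samples ranged from 0.00931 to 0.143 FPKM with a median of 0.0588, and none was at 0. To set this gap beside other genes, the largest ratio between neighbouring ordered values of FPKM + 0.1, with at least 3 samples on each side, was taken for all 9692 genes above 0.5 FPKM in at least 4 samples. It was 31.0 for HSD17B2, at rank 34, and 44 genes (0.454%) had a ratio of at least 20. With an offset of 0.5 in place of 0.1 the ratio of HSD17B2 was 12.3, so that it was not among the 13 genes that then reached 20. Among the other 9 genes described here the ratio was between 1.17 for HSD17B4 and 2.35 for LOC102189495, so HSD17B2 was alone among the 10 in this pattern.

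**Figure D1:**
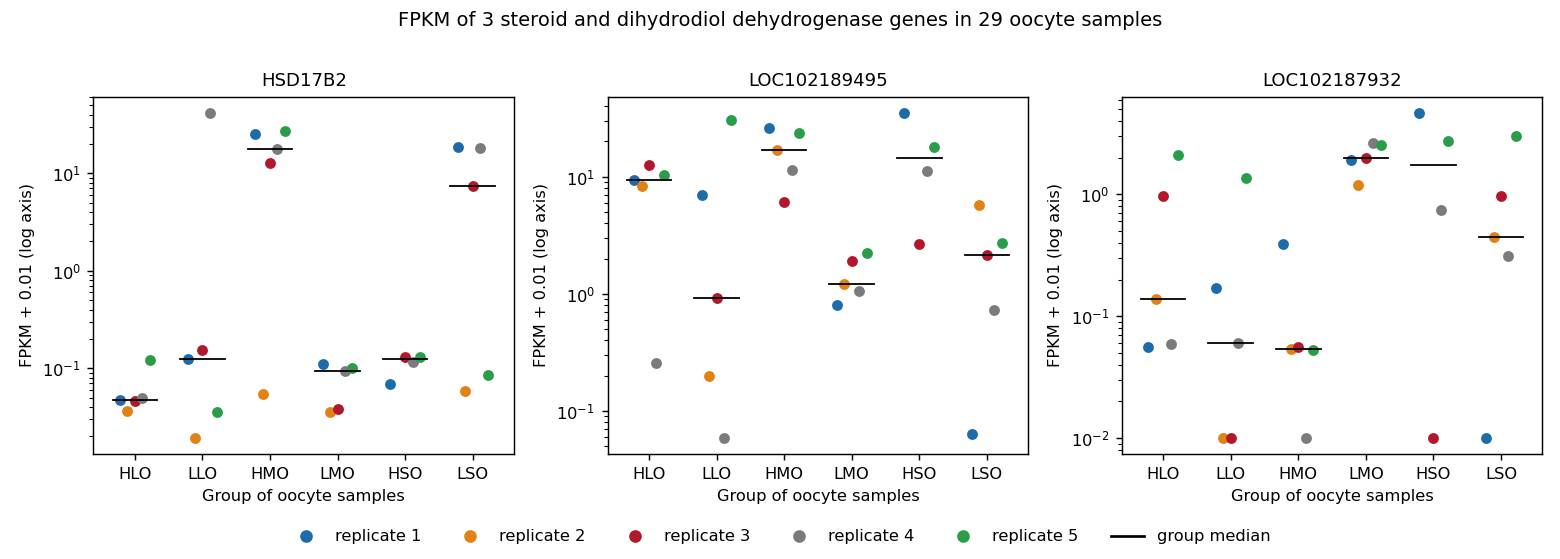
FPKM + 0.01 on a log axis for HSD17B2, LOC102189495 and LOC102187932 in each of the 29 samples by group, with points coloured by replicate number and a line at the group median. HSD17B2 splits into 8 samples at 7.44 FPKM or more and 21 at 0.143 or less, and LMO lies below HMO for LOC102189495 and above it for LOC102187932 without overlap.

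On the log2(FPKM + 1) scale, which understates the change of low genes, HSD17B2 was 3.43 higher in HMO than in LMO (standard error 0.73, n = 5 and 5). It passed 0.5 FPKM only in the 4 high HMO samples, so it was not fitted when any of these was left out. With HMO replicate 2 or an LMO sample left out, the difference ranged from 3.42 to 4.29, and it was 4.29 without HMO replicate 2. With a pseudocount of 0.1 in place of 1 it was 5.52, since the LMO values were so low. In the large and small follicles HSD17B2 passed 0.5 FPKM in fewer than 4 of the samples compared and was not fitted.

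The 10 genes whose levels went most closely with HSD17B2 over the 29 samples had Pearson's r of 0.976 to 0.990 on log2(FPKM + 1), as a description over samples that share their libraries. By Spearman's rho, which also ranks the 21 low samples, 3 of these 10 were still among the 10 most alike. RPL19, RPL7 and RPS23 encode ribosomal proteins, SARNP a protein of mRNA export, TCEB2 elongin B and ATP5G2 a subunit of the mitochondrial ATP synthase. LOC102175101 is described as sentrin-specific protease 8 and LOC102173702 as glutathione S-transferase A2, and the remaining 2 were LOC102183637 and LOC102170360. In every one of the 10, the 8 highest samples were the same 8 as for HSD17B2.

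Of these 10 genes, 8 shared their symbol with at least 1 other gene in the table, so reads of near-identical copies may have been divided between entries and their values are uncertain. The entry of RPL19 that followed HSD17B2, ENSCHIG00000011685, had a mean of 14.1 FPKM and an r of 0.990. The main RPL19 entry, ENSCHIG00000022085, had a mean of 357 FPKM, an r of 0.16 and none of the 8 samples among its own 8 highest. SARNP behaved alike, with a mean of 11.8 FPKM and r of 0.985 for the entry ENSCHIG00000017443 against a mean of 94.5 FPKM and r of 0.34 for ENSCHIG00000013335. For TCEB2 the 2 entries had means of 10.7 and 192 FPKM, with r of 0.982 and 0.13. Thus the entries that followed HSD17B2 were far below the main entry for these 3 symbols.

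Over all 9691 other genes compared, 144 (1.49%) had the same 8 samples as their 8 highest. Of these 144 genes 59 (41.0%) shared a symbol with another gene, whereas 1421 (14.7%) of all genes compared did. An r above 0.9 with HSD17B2 was found for 75 genes. Values of 3 of the 144 that have a symbol of their own are given as examples, chosen after their values were seen. For FGB (fibrinogen beta chain) r was 0.911 and the highest level 2.83 FPKM, for AZGP1 0.892 and 2.24 FPKM, and for ALAS1 (first enzyme of heme synthesis) 0.879 and 6.76 FPKM.

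Markers of other cell types were set beside HSD17B2. The summed liver markers had an r of 0.573 with it and ranged from 3.31 to 6.81 FPKM in HMO and from 1.32 to 3.69 in LMO. They include FGB, already named above for sharing the highest samples of HSD17B2, so this r is partly built in. None was at 0 in all samples, but APOA1 was in 27 of the 29, SERPINA1 in 25 and TTR in 16. An entry of FGA had the highest mean of the liver markers, 1.82 FPKM. The leukocyte sum had an r of -0.657, with 0.881 to 3.51 FPKM in HMO and 2.74 to 5.88 in LMO. This sum rested mostly on 1 gene, LAPTM5, with a mean of 1.90 and a highest level of 5.72 FPKM. The other 7 of the 8 stayed under 1 FPKM, with CD14, CD74 and TYROBP at 0 in all 29 samples. The theca and stroma sum had an r of -0.605. Sums of granulosa markers (r 0.109) and enterocyte markers (r -0.003, range 0.0709 to 1.65 FPKM, APOA4 and FABP2 at 0) followed it little. Red cell markers, with 2 of 5 in the table, summed to at most 0.464 FPKM. The part of any of these cells in the levels of HSD17B2 was not tested.

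**Figure D2:**
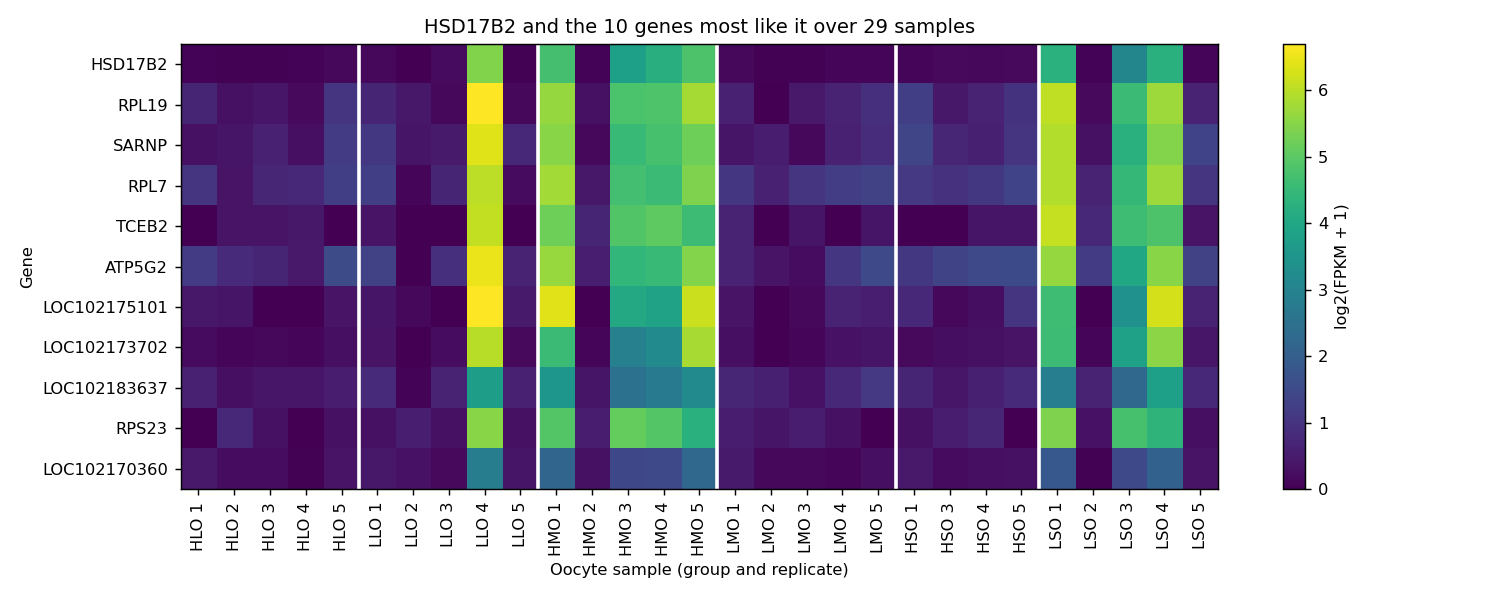
Heat map of log2(FPKM + 1) for HSD17B2 and the 10 genes most like it, with the 29 samples in columns by group. The same 8 columns, LLO 4, HMO 1, 3, 4 and 5 and LSO 1, 3 and 4, are the highest in every row. LOC102170360, with at most 6.14 FPKM, stays low on the shared colour scale.

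LOC102189495, described as dihydrodiol dehydrogenase 3, was higher in the high than in the low fertility oocytes of medium follicles, without overlap. HMO had 26.2, 16.9, 6.03, 11.3 and 23.7 FPKM in replicates 1 to 5. LMO had 0.800, 1.19, 1.90, 1.04 and 2.22 FPKM. The lowest HMO sample was thus above the highest LMO sample, as was so for 0.846% of the 8390 genes fitted in this comparison, and since the gene was chosen on these levels nothing is read from that share. The difference was 2.75 on the log2(FPKM + 1) scale (standard error 0.38). As background, 2.85% of genes were higher in HMO by a log2 fold change above 1 with an unadjusted p under 0.05. Nothing is read from this share either, since the gene was given no test.

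In the small follicles LOC102189495 stood at 35.0, 2.63, 11.2 and 17.7 FPKM in HSO replicates 1, 3, 4 and 5. LSO had 0.0539, 5.69, 2.12, 0.715 and 2.71 FPKM in replicates 1 to 5. HSO replicate 3 lay inside the LSO range and the other HSO samples above it, and the difference was 2.29 (standard error 0.69). In the large follicles the groups overlapped widely. HLO had 9.42, 8.28, 12.6, 0.246 and 10.3 FPKM, and LLO had 6.99, 0.187, 0.906, 0.0489 and 30.2 FPKM in replicates 1 to 5. The difference there was 0.99 (standard error 0.92), and it was 1.78 without LLO replicate 5, 1.62 without HLO replicate 4 and 0.55 without LLO replicate 4.

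By group median LOC102189495 was ordered HMO (16.9 FPKM), HSO (14.4), HLO (9.42), LSO (2.12), LMO (1.19) and LLO (0.906). Each of the 3 high fertility groups had a higher median than each low fertility group, but every group overlapped with the next in this order. Over the 29 samples LOC102189495 did not follow HSD17B2 (r -0.06). The 5 genes most like it were LOC102186942 (r 0.848), PRG4 (0.738), GLRA3 (0.737), MTA3 (0.734) and STEAP2 (0.701). PRG4 encodes the lubricating proteoglycan of joints, GLRA3 a glycine receptor subunit, MTA3 a subunit of the NuRD chromatin complex and STEAP2 a metalloreductase.

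LOC102187932, described as dihydrodiol dehydrogenase 3-like, went the other way in the medium follicles. LMO had 1.91, 1.18, 1.99, 2.64 and 2.56 FPKM in replicates 1 to 5. HMO had 0.384, 0.0438, 0.0461, 0 and 0.0429 FPKM. Every LMO sample was above every HMO sample, as for 0.858% of genes in this direction, again on the levels that chose the gene. The difference of HMO to LMO was -1.46 (standard error 0.18), and -3.61 with a pseudocount of 0.1. The gene was fitted there through LMO alone, since all 5 LMO samples and no HMO sample passed 0.5 FPKM.

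Elsewhere LOC102187932 was spread within groups. HSO had 4.67, 0, 0.735 and 2.72 FPKM in replicates 1, 3, 4 and 5, and LSO had 0, 0.439, 0.956, 0.303 and 2.99 FPKM in replicates 1 to 5. These groups overlapped, with a difference of 0.53 (standard error 0.52) that was 0.12 without HSO replicate 1 and 0.96 without HSO replicate 3. HLO had 0.0463, 0.128, 0.969, 0.0486 and 2.08 FPKM and LLO 0.160, 0, 0, 0.0504 and 1.34 FPKM, and the gene was too low to be fitted there. In all, it was listed at 0 in 5 samples. The genes most like it were RCSD1 (r 0.762), AMBP (0.740), RPSA (0.730), LOC108635602 (0.685) and LOC106501731 (0.682), of which AMBP encodes the bikunin precursor of liver and RPSA a ribosomal protein.

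Both LOC genes belong to a set of 12 genes in the table that are described as dihydrodiol dehydrogenase 3 or like it, a set chosen after the values were seen. In the RefSeq annotation of the ARS1.2 assembly all 12 lie in the same stretch of chromosome 13, and 5 genes, 2 of them pseudogenes, separate LOC102187932 from LOC102189495. Reads of such close copies can be divided between entries, so the level of each is uncertain. Of the other 10 genes, 5 passed 0.5 FPKM in at least 4 samples. LOC102186942, which lies near LOC102189495, was the highest of them, with a mean of 2.02 FPKM and a highest value of 12.8 FPKM in LLO replicate 5. It had 3.04, 4.43, 0.511, 1.31 and 6.65 FPKM in HMO and 0.747, 0.0792, 0.103, 0.668 and 0.301 FPKM in LMO, so that HMO replicate 3 lay inside the LMO range.

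LOC102190498 had a mean of 1.40 FPKM and LOC102176340 of 0.335 FPKM. LOC102189109 was listed at 0 in all 5 LMO samples and at 0.110 to 0.844 FPKM in HMO, with an HMO median of 0.161. It was too low to be fitted there, and 0.846% of the genes fitted were higher in HMO without overlap. In all, LOC102189109 was at 0 in 14 of the 29 samples, including 4 of LLO. LOC102188418 reached at most 1.02 FPKM. LOC102187932 and LOC102189495 had an r of 0.18 with each other. Besides LOC102186942, LOC102189495 had an r of 0.52 with LOC102187204, 0.50 with LOC102176340, 0.41 with LOC102190498 and 0.40 with LOC102189109, while LOC102187932 had its highest r among the 12, 0.37, with LOC102190498.

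**Figure D3:**
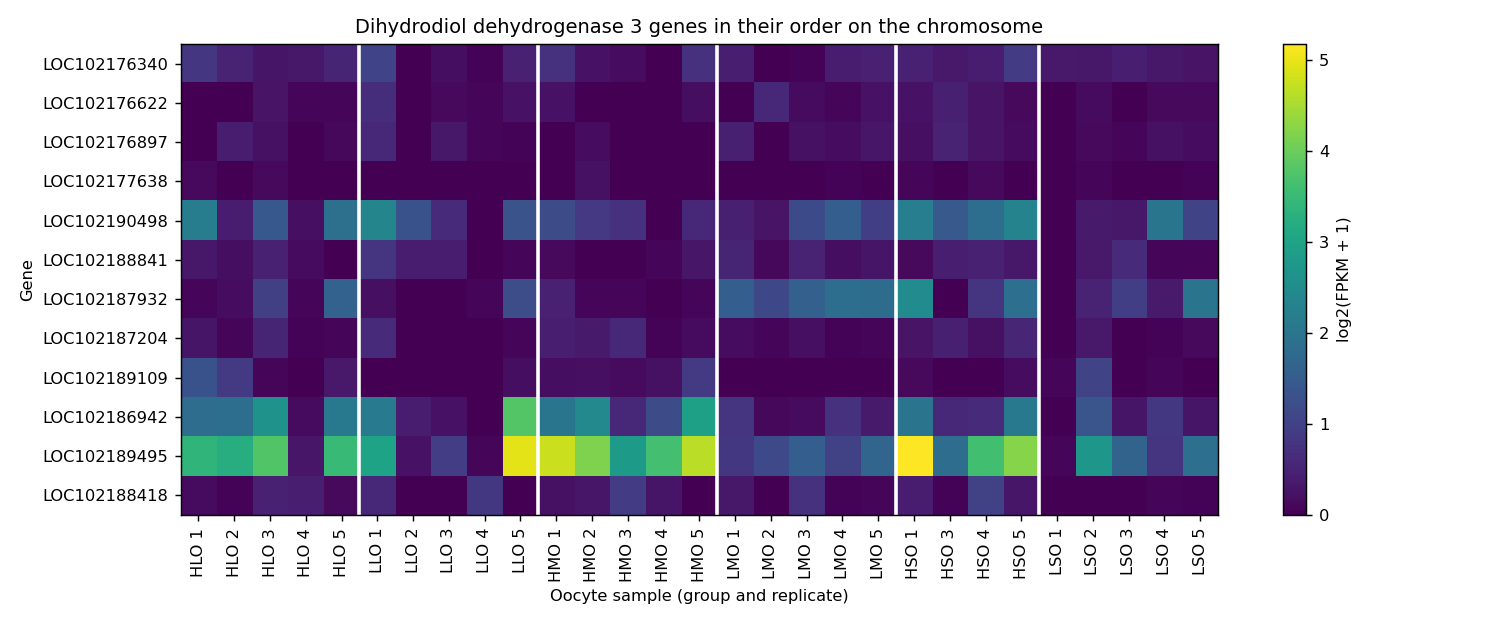
Heat map of log2(FPKM + 1) for the 12 dihydrodiol dehydrogenase 3 genes in their order along the chromosome, with the 29 samples in columns by group. LOC102189495 is brighter in HMO than in LMO, and LOC102186942 more weakly so, except in HMO 3. LOC102187932 is brighter in LMO than in HMO. Its LMO samples (1.18 to 2.64 FPKM) are low on the shared colour scale, close to those of LOC102189495 in LMO (0.800 to 2.22 FPKM).

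Among the 7 further HSD17B genes, HSD17B10 and HSD17B12 were the abundant ones and were present in every sample. HSD17B10, a mitochondrial enzyme of isoleucine breakdown that is also a subunit of mitochondrial RNase P, had 186 ± 112 FPKM (SD, n = 29) with a range of 31.1 to 397. HSD17B12, the ketoacyl reductase of very-long-chain fatty acid elongation, had 14.8 ± 10.8 FPKM (SD, n = 29) and ranged from 3.57 to 53.3. The peroxisomal enzyme HSD17B4, which shortens very-long-chain and branched fatty acids, was lower but the steadiest, with 1.64 ± 0.425 FPKM (SD, n = 29). HSD17B11, a lipid droplet enzyme, had 1.16 ± 0.994 FPKM and HSD17B7, a ketosteroid reductase of cholesterol synthesis, 0.868 ± 0.884 FPKM (SD, n = 29 for both). HSD17B8, of mitochondrial fatty acid synthesis, had a highest level of 1.16 FPKM and was listed at 0 in 5 samples. HSD17B14, a cytosolic steroid oxidising enzyme, had a highest level of 1.13 FPKM and was listed at 0 in 7.

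None of the 7 passed limma's moderated test between the fertility groups. The limits used in counting were an unadjusted p under 0.05 with a log2 fold change beyond 1, which are the lines drawn in the study's plots of fold change against p. Of the members that passed the filter on low values, 0 of 5 passed these limits in large follicles, 0 of 6 in medium and 0 of 5 in small, where 2.29%, 3.4% and 1.7% of all genes fitted did so in either direction. None had an unadjusted p under 0.05, by which 4.14%, 8.67% and 4.41% of all genes were called. With limma's array weights, 4 unadjusted p-values came under 0.05, for HSD17B11 in large follicles (0.0247) and for HSD17B12 (0.0175), HSD17B4 (0.0271) and HSD17B8 (0.0396) in medium follicles, each lower in high fertility by less than 1 on the log2 scale. By an adjusted p under 0.05 the share of all genes was 0% in large, 0.0715% in medium and 0.0119% in small follicles.

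HSD17B4 came nearest in the medium follicles. It had 1.32, 1.05, 1.54, 1.11 and 1.48 FPKM in HMO and 1.69, 1.87, 1.59, 1.97 and 2.002 FPKM in LMO in replicates 1 to 5. No HMO sample was above any LMO sample, as for 0.858% of all genes. The difference was -0.30 on the log2(FPKM + 1) scale (standard error 0.18), with limma's adjusted p of 0.633 over all genes. In HLO HSD17B4 had 1.61 to 1.89 FPKM, also above HMO, and in LLO 0.629 to 1.66, with a difference of 0.23 (standard error 0.25, adjusted p 0.848). In the small follicles the difference was 0.11 (standard error 0.23, adjusted p 0.943).

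For HSD17B10 the spread within groups was wide. It had 269, 102, 158, 66.0 and 342 FPKM in HLO, 397, 84.0, 74.8, 132 and 169 in LLO, and 375, 85.5, 182 and 356 in HSO replicates 1, 3, 4 and 5. LSO had 64.1, 70.2, 47.3, 218 and 289 FPKM, HMO 261, 206, 72.2, 198 and 166, and LMO 351, 31.1, 89.8, 274 and 270. All pairs of groups overlapped. The largest difference was that of HSO to LSO, 1.0 (standard error 0.64, adjusted p 0.880), and HSD17B10 differed by 0.16 in both other comparisons (standard errors 0.61 and 0.63, adjusted p 0.950 and 0.961). Without HSO replicate 3 the difference of HSO to LSO was 1.44 (limma's unadjusted p 0.0419) and without LSO replicate 5 it was 1.36 (limma's unadjusted p 0.0468), which passed the limits.

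HSD17B12 likewise was 0.79 higher in HSO than in LSO (standard error 0.52, adjusted p 0.880). Its group ranges were 9.22 to 33.6 FPKM in HSO and 3.97 to 21.2 in LSO. In the medium follicles they were 7.53 to 18.4 FPKM in HMO and 3.57 to 27.5 in LMO, and in the large ones 5.80 to 30.0 in HLO and 5.64 to 53.3 in LLO. Each pair overlapped. The differences of HMO to LMO, -0.10, and of HLO to LLO, -0.18, were smaller than their standard errors of 0.47 and 0.63.

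HSD17B11 and HSD17B7 varied widely within groups. HSD17B11 ranged from 0.110 to 3.15 FPKM in HLO, 0.458 to 2.37 in LLO, 0.582 to 2.84 in HMO, 0.0580 to 1.38 in LMO, 0.0290 to 1.90 in HSO and 0.0904 to 3.38 in LSO. For HSD17B7 the ranges were 0.0531 to 1.35 FPKM in HLO, 0.269 to 2.27 in LLO, 0.371 to 1.73 in HMO, 0.229 to 1.24 in LMO, 0.252 to 4.01 in HSO and 0.183 to 2.80 in LSO. All of these ranges overlapped. The differences of HSD17B11 were -0.47, 0.41 and -0.18 in large, medium and small follicles (standard errors 0.39, 0.33 and 0.42; without HLO replicate 5 that of large follicles was -0.79, with limma's unadjusted p of 0.0338), and those of HSD17B7 were -0.35, 0.09 and -0.05 (standard errors 0.30, 0.23 and 0.45). HSD17B8, fitted only in the medium follicles, had 0.0926, 0.578, 0.116, 0.250 and 0.429 FPKM in HMO and 0.623, 0.221, 0.639, 0.613 and 0.406 in LMO, with a difference of -0.22 (standard error 0.15, adjusted p 0.669). HSD17B14 was too low to be fitted in any of the 3 follicle sizes, with 0.147 to 1.07 FPKM in HLO, 0 to 0.749 in LLO, 0 to 0.459 in HMO, 0 to 1.13 in LMO, 0 to 0.871 in HSO and 0 to 0.465 in LSO.

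**Figure D4:**
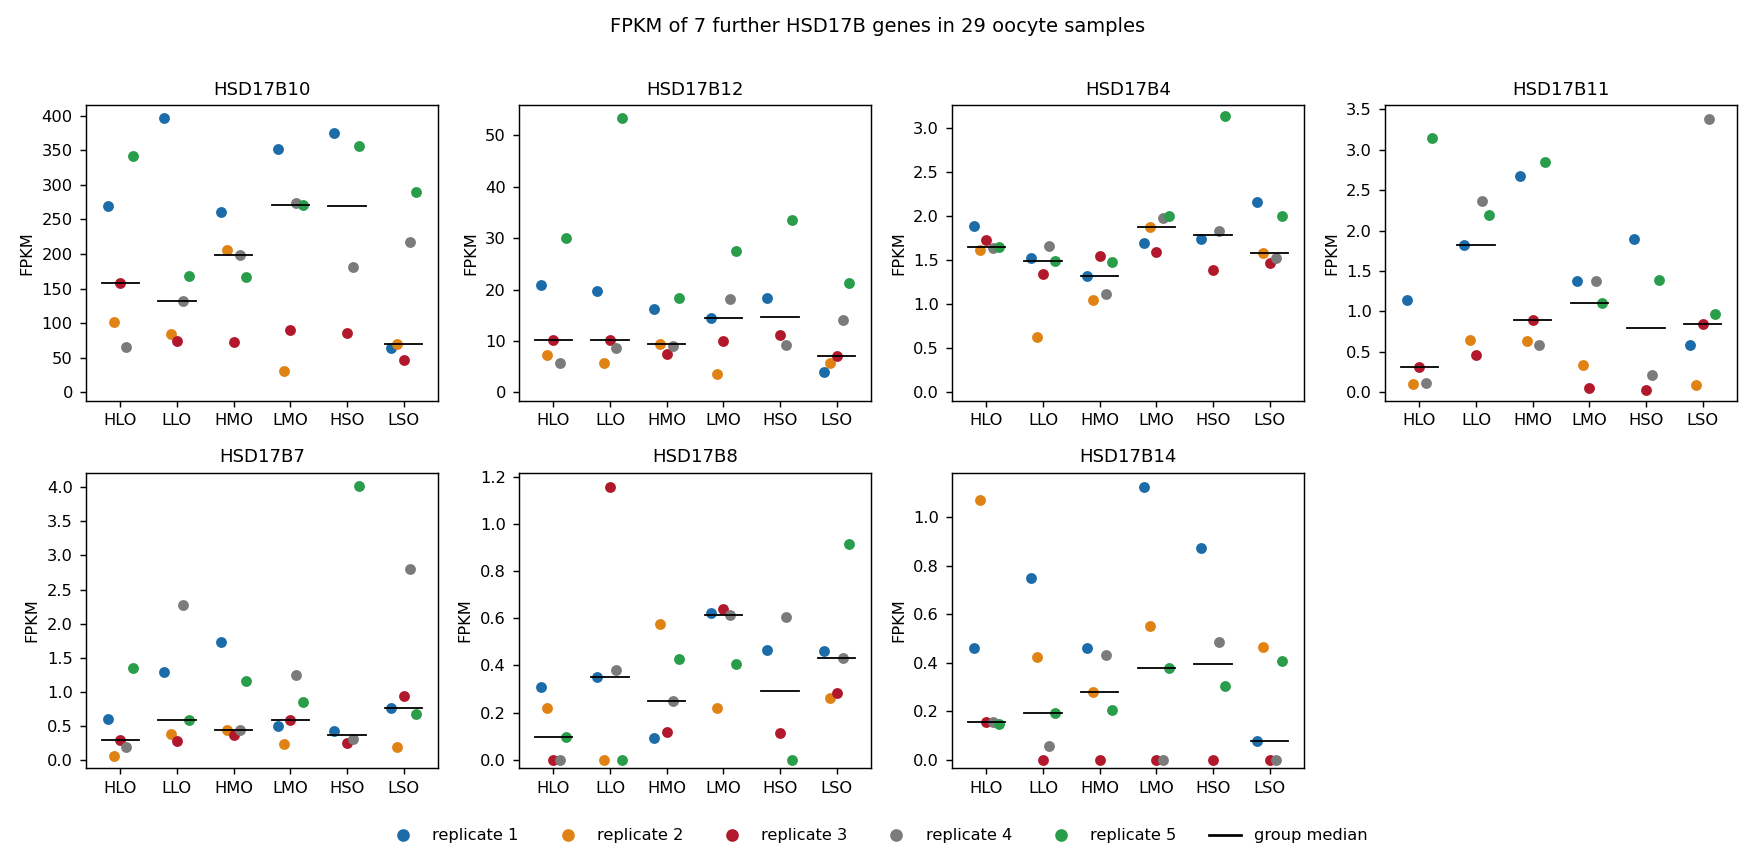
FPKM of the 7 further HSD17B genes in each sample by group, with points coloured by replicate number and a line at the group median. All 7 overlap between the high and low fertility groups of a follicle size except HSD17B4 in HMO and LMO, and the replicate 5 samples of HSD17B12 are the highest of their group in all 6 groups.

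The levels of several of these genes went with the replicate number, whose meaning the labels do not give. HSD17B12 had medians of 17.3, 5.74, 10.1, 9.14 and 28.8 FPKM over the samples numbered 1 to 5. HSD17B10 had 310, 84.0, 80.1, 190 and 280 FPKM and HSD17B11 had 1.60, 0.341, 0.385, 0.982 and 1.79 FPKM in the same order. Samples numbered 1 and 5 were thus the high ones for all 3. Over the 29 samples HSD17B10 and HSD17B12 had an r of 0.78, HSD17B7 and HSD17B11 of 0.73, and HSD17B11 and HSD17B12 of 0.63, values that rest on shared libraries.

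For follicle size, limma's F-test used the whole set of 29 samples and took fertility as a covariate. None of the 7 genes had an unadjusted p under 0.05, which 1.66% of all 9692 genes had, and the adjusted p was 1 for each. The test of whether the fertility difference itself differed between follicle sizes called none of the 7 either, against 7.89% of all genes by an unadjusted p under 0.05. HSD17B4 had the lowest p there, 0.0892 from limma's test (adjusted p 0.718).

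**Figure D5:**
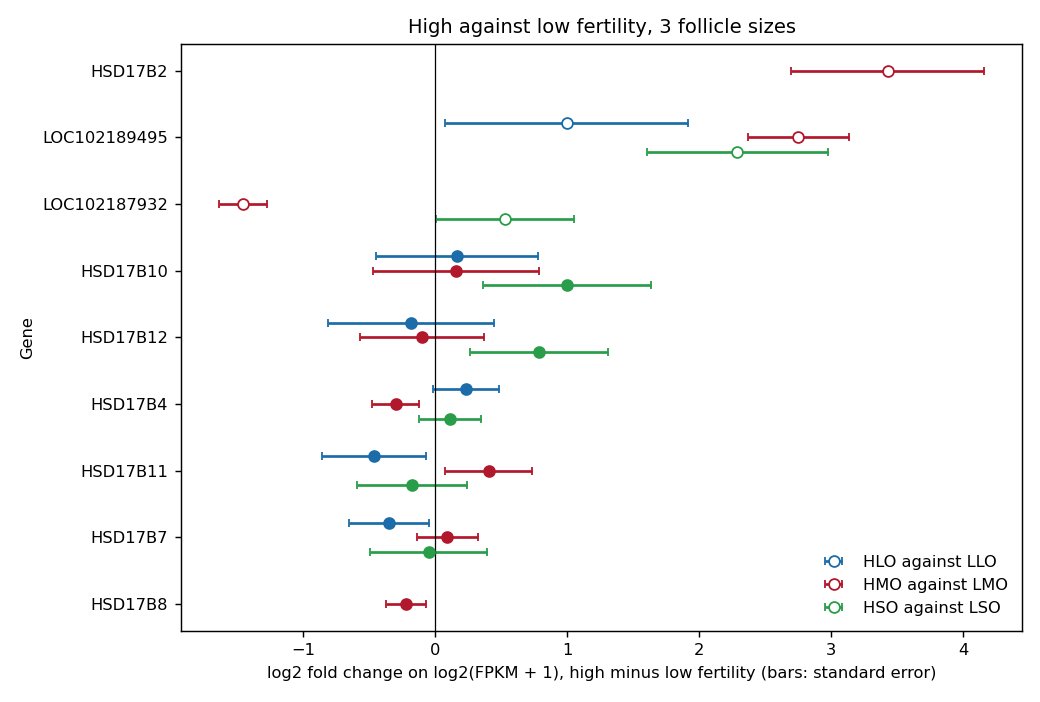
Log2 fold change on log2(FPKM + 1), high minus low fertility, with the standard error as a bar, for the members fitted in large, medium and small follicles. Open points are the 3 genes chosen on their levels, which reach 3.43, 2.75 and -1.46 in HMO against LMO, while the filled points of the other genes lie between -0.47 and 1.0.

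The genes around these enzymes were described through 10 lists made by function. With the 7 family genes, 78 of them were fitted in large, 82 in medium and 83 in small follicles. By the limits above 1, 1 and 2 were called, or 1.28%, 1.22% and 2.41% of those fitted, beside 2.29%, 3.4% and 1.7% of all genes, and 0 passed an adjusted p under 0.05 in any comparison by limma. An unadjusted p under 0.05 was found for 6, 3 and 3 of them.

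Other hydroxysteroid dehydrogenases and steroid reductases were mostly low, apart from HSDL2 and SRD5A3. HSD17B1, which makes estradiol in granulosa cells, was listed at 0 in all 29 samples, HSD17B6 in 25 and HSD17B13 in 28. HSD17B3, the androgen-forming enzyme, had 1.04 ± 0.903 FPKM (SD, n = 29) and passed 0.5 FPKM in 17 samples. The most abundant of this list were HSDL2, a peroxisomal short-chain dehydrogenase-like protein, with 10.9 ± 7.26 FPKM, and SRD5A3, of dolichol synthesis, with 2.71 ± 1.16 FPKM (SD, n = 29 for both). The gene called 3BHSD in the table, of progesterone synthesis, was listed at 0 in 9 samples, passed 1 FPKM in 5 and reached 9.76 FPKM. Of this list 4 to 5 genes were fitted per comparison and 0 called, with median differences of -0.22, 0.12 and 0.29 in large, medium and small follicles, where all genes had -0.09, -0.07 and -0.01.

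In the list of short-chain dehydrogenases for retinoids and other carbonyls, CBR3 and RDH10 were abundant, with 349 ± 159 and 128 ± 54.5 FPKM (SD, n = 29 for both). CBR3, a carbonyl reductase, was higher in HLO (466 ± 158 FPKM, n = 5) than in LLO (210 ± 190 FPKM, n = 5) by the counting limits, by 1.72 (standard error 0.71), but with limma's adjusted p of 0.828. The ranges of 278 to 710 and 39.8 to 483 FPKM overlapped, and the call was lost without HLO replicate 1, 2 or 3 or LLO replicate 2 or 5, where 0 listed genes were called. DHRS7C, a short-chain dehydrogenase best known from muscle, was lower in HSO (3.43 ± 1.30 FPKM, n = 4) than in LSO (14.4 ± 7.57 FPKM, n = 5) by -1.64 (standard error 0.47, limma's adjusted p 0.880), with ranges of 2.69 to 5.38 and 3.47 to 24.8 FPKM that overlapped. These were the genes called of 14 fitted per comparison, and the median differences of the list were -0.01, -0.06 and 0.12.

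STAR, which delivers cholesterol to the first step of steroid synthesis, was lower in HMO than in LMO. Its mean in HMO was 12.3 ± 2.97 FPKM (SD, n = 5), that of LMO 26.5 ± 7.41 FPKM (SD, n = 5), with ranges of 8.54 to 15.6 and 19.8 to 39.0 FPKM that did not overlap, as for 0.858% of all genes fitted. The difference was -1.04 (standard error 0.31, limma's adjusted p 0.266), and STAR was no longer called after scaling by median-of-ratios factors or without both samples numbered 2, nor without HMO replicate 1, HMO replicate 3 or LMO replicate 2. STAR is also in the theca and stroma list, whose sum was 17.2 to 33.3 FPKM in HMO and 27.8 to 48.2 in LMO, and the part of such cells in this difference was not tested. Of the enzymes that follow STAR, CYP11A1 had at most 0.517 FPKM and CYP19A1, the aromatase, at most 0.244 FPKM. The gene 3BHSD, named above, passed 1 FPKM in 5 samples and reached 9.76 FPKM. CYB5A and FDX1, electron carriers of this pathway and of others, had 59.6 ± 42.4 and 22.8 ± 15.2 FPKM (SD, n = 29 for both). Of the list 3 genes were fitted per comparison, with median differences of -0.08, -0.69 and 0.41.

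Steroid receptors were low apart from the mineralocorticoid receptor NR3C2, with an entry of 9.48 ± 4.74 FPKM, and the membrane protein PGRMC1, with 16.7 ± 7.88 FPKM (SD, n = 29 for both). The estrogen receptor gene ESR1 was listed at 0 in 23 samples, whereas ESR2 reached 1.16 FPKM and PGR 1.26 FPKM. No gene of the list of conjugation and receptors was called, of 4 to 5 fitted, with medians of -0.08, -0.22 and 0.10. NR3C2 has 2 entries in the table and its level is uncertain.

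Cholesterol synthesis, in which HSD17B7 acts, was led by FDPS and ACAT2, with 136 ± 78.1 and 52.5 ± 32.3 FPKM (SD, n = 29 for both). LBR, the lamin B receptor with sterol reductase activity, was higher in HSO (3.82 ± 1.33 FPKM, n = 4) than in LSO (1.24 ± 0.508 FPKM, n = 5) by 1.09 (standard error 0.28, limma's adjusted p 0.880). Its ranges of 2.59 to 5.39 and 0.653 to 1.93 FPKM did not overlap, as for 0.752% of all genes fitted. It was the gene called of 14 fitted, and the medians of the list were -0.12, -0.07 and 0.26 in large, medium and small follicles.

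The partners of HSD17B12 in fatty acid elongation were present in most samples. HACD2 and HACD3, dehydratases of the cycle, had 20.01 ± 8.004 and 8.07 ± 5.20 FPKM, TECR, its last reductase, 3.04 ± 2.16 FPKM, and ELOVL4, an elongase, 9.92 ± 4.44 FPKM (SD, n = 29 for each). All 13 genes of this list that were fitted stayed within the limits, and their medians were -0.06, 0.01 and 0.02. The partners of HSD17B10 in mitochondrial RNase P, TRMT10C and KIAA0391, had 15.9 ± 7.09 and 13.1 ± 8.75 FPKM, and ACAT1, which follows HSD17B10 in isoleucine breakdown, 36.7 ± 33.1 FPKM (SD, n = 29 for each). None of the 7 to 8 genes fitted of that list was called, and the medians were -0.10, 0.07 and 0.04.

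Among the genes around HSD17B4, ABCD3, a peroxisomal transporter, and PEX7, an import receptor, had 4.74 ± 2.62 and 3.44 ± 1.39 FPKM (SD, n = 29 for both), and of 4 to 5 fitted genes of peroxisomal beta-oxidation 0 were called, with medians of 0.14, -0.13 and -0.29. CBR4, which works with HSD17B8, had 4.003 ± 2.40 FPKM, NDUFAB1, the acyl carrier protein, 104 ± 104 FPKM and LIAS, which makes lipoic acid, 6.93 ± 6.25 FPKM (SD, n = 29 for each). Of 5 to 7 fitted genes of mitochondrial fatty acid synthesis 0 were called, with medians of 0.24, -0.14 and 0.09. On lipid droplets, where HSD17B11 sits, PLIN2 had 21.8 ± 20.03 FPKM in its expressed entry and CIDEA 9.33 ± 4.14 FPKM (SD, n = 29 for both), and of 4 to 5 fitted genes 0 were called, with medians of 0.34, -0.24 and 0.11.

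Over follicle sizes, 4 of 93 listed genes had an unadjusted p under 0.05 by limma's F-test, or 4.3% against 1.66% of all genes, and 0 had an adjusted p under 0.05. They were SRD5A1, SQLE, LIPT2 and DGAT2, a steroid reductase, an enzyme of cholesterol synthesis, one of lipoylation and one of triglyceride synthesis. In the test of whether the fertility difference changed with follicle size, 8 of 93 (8.6%) had an unadjusted p under 0.05 against 7.89% of all genes, and 0 passed the adjustment. These were DHRS12, KDSR, STAR, SQLE, ELOVL7, ACACA, ACOX3 and TRMT10C.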

How the data were processed

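RNA-seq of 29 oocyte samples was used. The authors aligned the reads, kept unique matches, removed duplicates and deposited 1 table of FPKM per gene made with Cufflinks and an Ensembl annotation; the aligner version and genome build are not given in the sources used here. Strand was not stated. Columns were matched to samples by name, and 1 column that matched no sample was not used. No pair of samples held identical values.

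Groups were compared with limma 3.58.1 (R 4.3.3), using eBayes with the trend option. Values were log2(FPKM + 1), a gene had to exceed 0.5 FPKM in 4 or more samples of the comparison, and p-values were adjusted over all such genes by Benjamini-Hochberg. The study names no test. FPKM keep no depth, so no counting interval is given. The procedure was tested on simulated data. Alternatives were a pseudocount of 0.1, other filters, median-of-ratios factors, array weights, a replicate block, 1 fit over all samples, Spearman's rho and each sample left out.

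The genes and lists were chosen with earlier results of these data known. Named are all 10 members, the 10 (HSD17B2) or 5 (LOC genes) genes of highest Pearson's r, listed genes past the limits and the 2 most abundant of each of the 10 lists; others were named for their role after their values were seen. Python 3.11.15, numpy 2.4.6, pandas 2.3.3, scipy 1.17.1 and matplotlib 3.10.9 served for the rest.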

Additional observations from a re-analysis of the deposited data

Results flagged for a closer look

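The highest sample of a gene stood apart from the others of its group by Dixon's criterion in 8 cases. For HSD17B2, LOC102189495 and LOC102187932, which were chosen on these levels, the 5 cases are a description. For the 7 other genes there were 3 cases in 42 groups of 4 or 5 values, where chance gives about 1 in 20 if values are normally distributed. FPKM need not be, so that rate may not hold here. LSO replicate 4 was a case for both HSD17B7 and HSD17B11, which had an r of 0.73, so these were not separate events. HSD17B2 was 41.7 FPKM in LLO replicate 4, where the next sample had 0.143, and 0.113 FPKM in HLO replicate 5, where the next had 0.0394. LOC102189495 was 30.2 FPKM in LLO replicate 5, next to 6.99. LOC102187932 was 1.34 FPKM in the same LLO replicate 5, with 0.160 in the next sample, and 0.384 FPKM in HMO replicate 1, with 0.0461 in the next. HSD17B7 was 4.01 FPKM in HSO replicate 5, with 0.421 in the next sample, and 2.80 FPKM in LSO replicate 4, with 0.932. HSD17B11 was also high in LSO replicate 4, at 3.38 FPKM against 0.964 in the next.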

How the results depend on the processing

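Depth cannot be read from FPKM, zeros may be failed estimates, and reads of close copies may have been lost or divided between entries. Listed genes called in HLO against LLO numbered 1 and became 5 with a pseudocount of 0.1, 6 with median-of-ratios factors, 5 with array weights and 4 in 1 fit over all samples. In HMO against LMO 1 became 2 with the pseudocount, 0 with median-of-ratios factors, 12 with array weights (5 after adjustment) and 0 without both samples numbered 2, a setting chosen after seeing the data. HSO against LSO went from 2 to 4 with median-of-ratios factors, follicle size from 4 to 10 and the interaction from 8 to 22 with array weights. The causes were not tested. Whether the replicate numbers pair the samples was not settled, and the main fits did not pair them. Deviations of same-numbered samples correlated at 0.49, 0.20, 0.50, -0.07 and 0.54 in large follicles, in the order of the numbers. In medium follicles the correlations were 0.46, 0.47, 0.62, -0.43 and 0.67. In small follicles, without number 2, they were 0.00014, 0.74, -0.51 and 0.60. Some samples correlated best with their own number and others did not. With the replicate block the called genes were 3 in HLO against LLO and 19 in the interaction; the other counts stayed within 1.5 times. Leaving out samples gave 0 to 7 called genes in HLO against LLO (0 without HLO replicate 1, 2 or 3 or LLO replicate 2 or 5, 7 without LLO replicate 1, 5 without LLO replicate 3 or 4), 0 to 3 in HMO against LMO (0 without HMO replicate 1 or 3 or LMO replicate 2, 3 without LMO replicate 3), 1 to 7 in HSO against LSO (7 without HSO replicate 3 or LSO replicate 5), 4 to 8 for follicle size (8 without LLO replicate 4) and 3 to 13 for the interaction (13 without LLO replicate 1). HSD17B10 turned to -0.25 in HLO against LLO and -0.71 in HMO against LMO with array weights, and to -0.48 in the latter without both samples numbered 2. In HMO against LMO, HSD17B7 turned to -0.21 and HSD17B11 to -0.05 with array weights, and HSD17B12 to 0.01 with median-of-ratios factors. With samples left out, HSD17B10 ranged from -0.12 to 0.53 and HSD17B12 from -0.49 to 0.28 in HLO against LLO, HSD17B7 from -0.07 to 0.20, HSD17B10 from -0.40 to 0.46 and HSD17B12 from -0.49 to 0.17 in HMO against LMO, and HSD17B4 from -0.05 to 0.22, HSD17B7 from -0.53 to 0.20 and HSD17B11 from -0.43 to 0.11 in HSO against LSO; none of these was called. LOC102189495 was 3.38 in HMO against LMO with a pseudocount of 0.1. Genes with a gap of at least 20 fell from 44 to 13 with an offset of 0.5, and of the 10 genes most like HSD17B2, 3 remained by Spearman's rho.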
